A study of Rattus norvegicus with 12 samples.

Results

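The genes described here make, sense and remove prostaglandins in the kidney, together with 1 enzyme that removes fatty acid epoxides. The set holds the cyclooxygenases Ptgs1 and Ptgs2, the synthases Ptges and Ptgds, the prostaglandin E2 receptors Ptger1, Ptger3 and Ptger4, and the breakdown enzymes Hpgd and Ephx2. Members were chosen by symbol, and every probe set that the array annotation gives to one of these symbols was taken. This gave 14 probe sets for 9 genes, out of 31042 probe sets that are not array controls and 14217 named genes.

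Kidney tissue was taken from male Zucker rats, 12 in all with 1 array each, of which 6 were lean and 6 obese. In the lean as in the obese animals, 3 received a ground chow control diet and 3 received that diet with added rosiglitazone (3 mg per kg of body weight), both for 12 weeks. Rosiglitazone activates the nuclear receptor PPARgamma and is used as an insulin-sensitizing drug. Obesity in this strain comes from a mutation of the leptin receptor, and the animals eat to excess and become insulin resistant, and the labels call the animals a model for diabetes. The 4 groups shared sex, strain and feeding time, and neither the age of the rats nor the genotype of the lean ones is known from the labels. Values are array signals on a linear scale, scaled by the authors so that arrays can be compared.

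Prostaglandins are made from arachidonate, which phospholipases release from membranes and cyclooxygenases turn into prostaglandin H2. Separate synthases then form prostaglandin E2, prostaglandin D2 and other prostanoids, which act on receptors of nearby cells before the dehydrogenase encoded by Hpgd inactivates them. In the kidney these lipids take part in renin release, blood flow and the handling of salt and water, and the thick ascending limb with its macula densa and the medulla are known sites of Ptgs2.

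A probe set was tested where its mean over all arrays lay at or above the 40th percentile, a signal of about 143.86. The threshold kept 11 of the 14 probe sets, which cover 7 of the 9 genes, and left out Ptger1 and Ptger4. Signals of bacterial control probe sets with no target in the sample reached 123.7 on at least 1 array, and that value is used as background. It is a strict cut, the highest of 324 such values, of which 5 were above 100 and the median was 10.3. Changes are differences of log2(signal + 16) between group means, fitted with limma over all 18625 probe sets tested. A probe set was called at a Benjamini-Hochberg adjusted p under 0.05 within its comparison.

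The trimmed mean signal was 500.12 to 500.15 on every array. The arrays were split in 2 classes at the widest gap in the signal of a single probe set for the spiked-in cre transcript. Such a cut always gives 2 classes. The signal was 19916 to 21951 on the 5 arrays of the higher class and 14412 to 16658 on the 7 of the lower. The higher class held 2 lean control, 2 lean rosiglitazone and 1 obese control array, and all 3 obese rosiglitazone arrays were in the lower class, so spike-in class and body type overlap in part. The lower class held 1 lean control and 1 lean rosiglitazone array, so in values within that class each lean group is a single array, assumed to vary like the obese arrays. Markers of the nephron were present and all 3 adrenal cortex genes measured were at background. The summed signal of 6 proximal tubule markers was 45396 to 54180 in lean and 35282 to 42091 in obese rats, while that of 6 distal tubule and collecting duct markers was 21939 to 28551 in lean and 31896 to 35874 in obese rats. In both lists the lean and obese ranges did not overlap. Fat cell markers differed as well, with 6 of 7 tested called lower in obese rats over both diets, beside 6.62% of all probe sets tested. The part of fat cells in the member results was not tested. In kidney tissue, fewer cells of a type and less RNA per cell cannot be told apart.

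Of the members, Ptgs2 and Ptger3 passed the test between lean and obese kidneys, and both were higher in obese rats. Over both diets Ptgs2 was 2.27-fold higher in obese rats, and the 2 probe sets of Ptger3 were 1.31-fold and 1.3-fold higher. No member passed the test for rosiglitazone, in lean or in obese rats. All 11 member probe sets tested had a log2 change above 0 in obese against lean rats, with a median of 0.27, beside 0.03 over all probe sets tested. They come from 7 genes, several with 2 probe sets, and some changes were near 0, such as Ephx2 at 0.02 and Ptgs1 (1381806_at) at 0.05. The share of all probe sets with a change above 0 was not taken, so this count is a description. Under the alternatives described below, 10 of 231 member values of this comparison changed sign. Among them, with each array centred on its median that of Ephx2 was -0.01, and within the lower spike-in class those of Ptges (1368014_at) and Ptgs1 (1381806_at) were -0.04 and -0.07. In this comparison 3 of 11 member probe sets were called, where 14.3% of all tested probe sets were called and 7.69% were called higher.

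**Figure D1:**
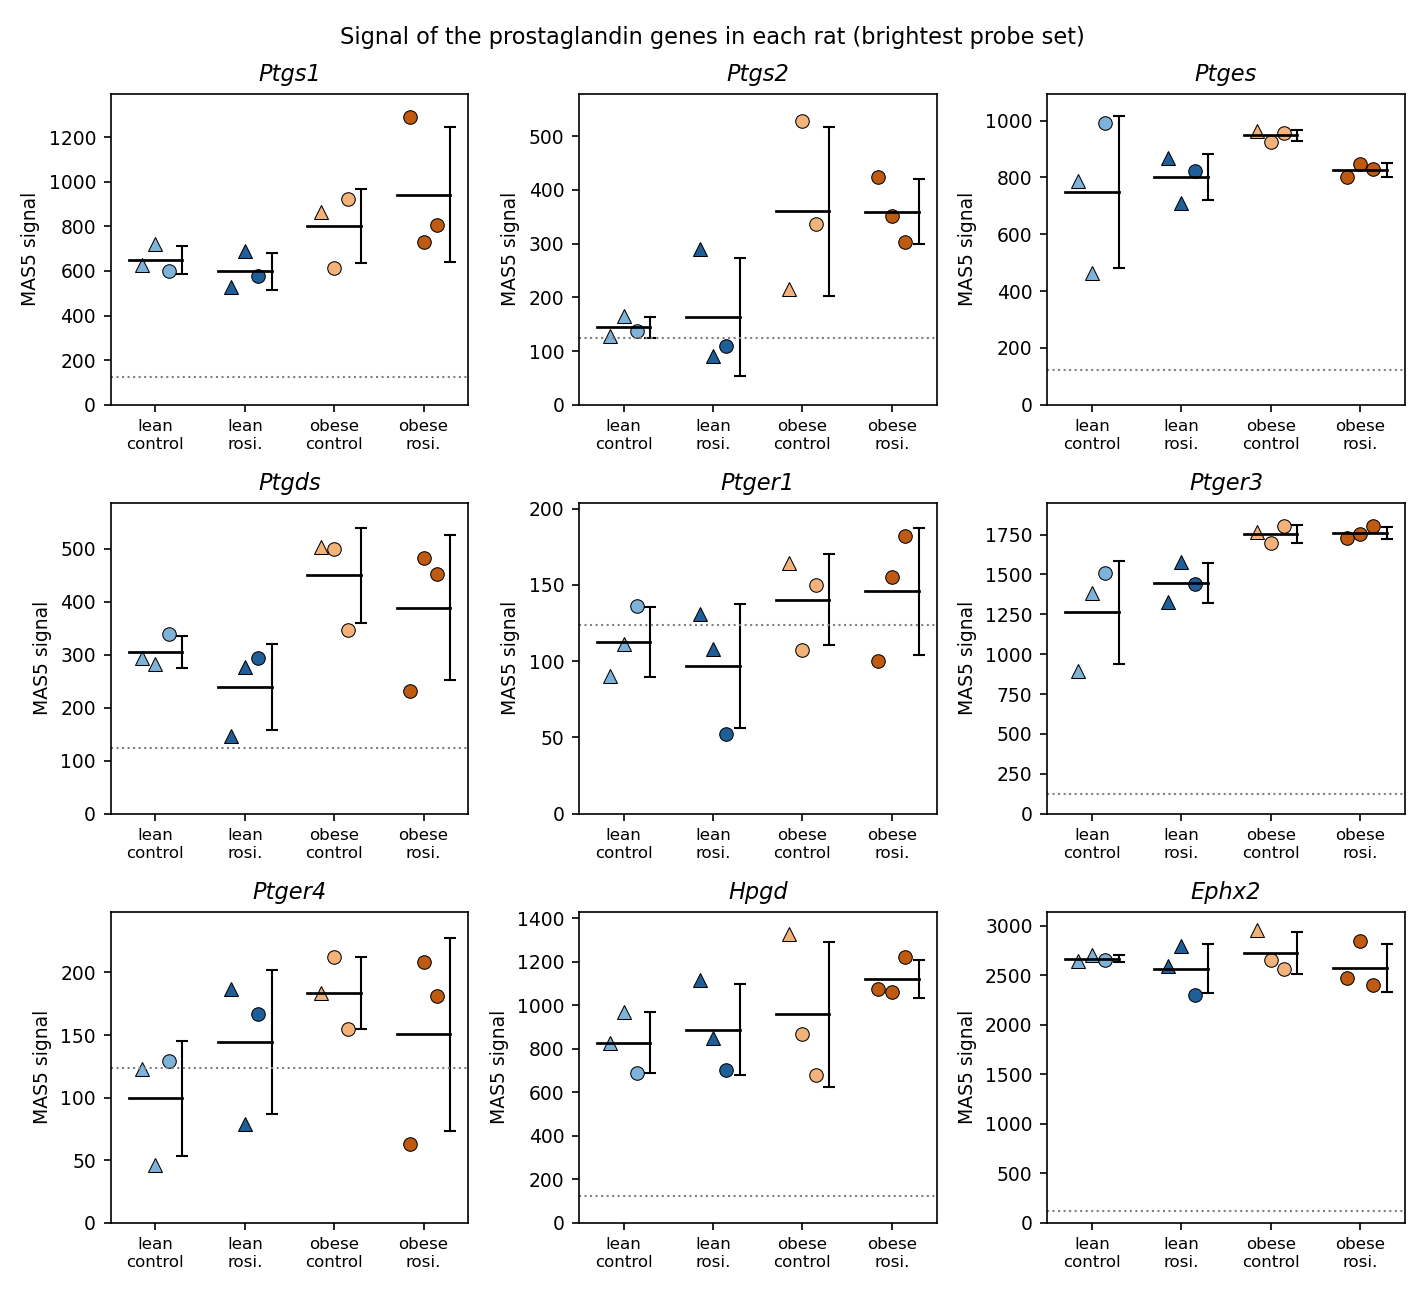
Signal of the brightest probe set of each gene in each rat, with the 4 groups on the horizontal axis and the signal from 0 on the vertical axis. Triangles are arrays of the higher and circles arrays of the lower spike-in class, bars are the group mean ± SD (n = 3), and the dotted line is the background of 123.7. All obese rats lie above all lean rats for Ptger3, and the obese rats lie above the lean rats on the same diet for Ptgs2.

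The first group of members is the cyclooxygenases. Ptgs2 encodes the inducible cyclooxygenase, and its promoter is shown here because this gene had the largest fold change of the set. The 250 bases before its start of transcription are at chr13:64713813-64714062 on the plus strand of the rat assembly GRCr8, from RefSeq. Capitals mark a match to TTNNGCAA, a motif of C/EBP factors, 140 bases before the start, and a CACGTG, an E-box, 55 bases before it.
Ptgs2 promoter: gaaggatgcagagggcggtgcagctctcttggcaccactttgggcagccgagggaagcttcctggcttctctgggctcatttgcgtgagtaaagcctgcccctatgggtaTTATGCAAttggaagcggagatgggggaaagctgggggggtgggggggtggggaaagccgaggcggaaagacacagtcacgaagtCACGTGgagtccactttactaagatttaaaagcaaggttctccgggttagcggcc

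Both strands of 300 bases, from 250 before to 50 after the start, were searched for 8 of the 9 members. Ephx2 was not matched. TTNNGCAA was found in 10.6% and CACGTG in 6.42% of all 33469 rat promoters of this length, so neither is rare. Outside Ptgs2, Ptges held 1 TTNNGCAA and Hpgd 1 CACGTG. The repeat bound by PPARgamma with its partner RXR, 2 copies of AGGTCA in the same direction with 1 base between them, was in none of the 8 promoters with at most 1 mismatch, and in 0.439% of all promoters. TATAAA was in none of the 8 either, and in 14.2% of all promoters. These are matches of letters in a short window and do not show that a factor binds or is absent.

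Ptgs2 signals were 128, 166 and 138 in the 3 lean rats on control diet and 216, 528 and 336 in the obese rats on that diet. On rosiglitazone they were 290, 90.5 and 109 in lean rats and 423, 351 and 303 in obese rats. Every obese rat lay above every lean rat on the same diet, but across diets the ranges met, since lean rosiglitazone replicate 1 lay above obese control replicate 1. Lean rats were close to the strict background cut of 123.7: 2 of 6 were under it, both of them on rosiglitazone, and 0 of 6 obese rats were. All lean signals lay above the median bacterial control signal of 10.3.

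The group means of Ptgs2 were 144 ± 19.7 in lean control, 163 ± 110 in lean rosiglitazone, 360 ± 157 in obese control and 359 ± 60.5 in obese rosiglitazone rats (SD, n = 3 each). Over both diets the log2 change was 1.19 (SE 0.25, 95% interval 0.64 to 1.73, limma adjusted p = 0.00731). Lean signals lay close to the filter cut of 143.86, and the mean used by the filter includes the higher obese arrays. With every probe set kept in the fit the change was also 1.19 (limma adjusted p = 0.0111). The log2 change was 1.15 on control diet (limma adjusted p = 0.0906) and 1.22 on rosiglitazone (limma adjusted p = 0.0701), so the sizes were close and neither diet alone passed the threshold. Within the lower spike-in class, where the 2 lean groups have 1 array each, the change over both diets was 1.54 (limma adjusted p = 0.00734). Within the higher class only the control diet could be compared, with 2 lean and 1 obese array, and the change there was 0.52 (limma adjusted p = 0.849).

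Markers of cells that can make Ptgs2 went in both directions. The thick ascending limb and macula densa list had a summed signal of 26184 to 32394 in lean and 26392 to 29809 in obese rats, a sum to which Umod gives the most. Of its 5 genes, Kcnj1 rose by 0.52 (limma adjusted p = 0.0168) and Slc12a1 by 0.23 (limma adjusted p = 0.0496), and Umod fell by 0.27 (limma adjusted p = 0.0171). Cldn16 at -0.01 and the macula densa marker Nos1 at -0.25 did not pass (limma adjusted p = 0.953 and 0.345). The summed signal of 8 macrophage and leukocyte genes was 8845 to 11519 in lean and 8422 to 13062 in obese rats, with Lyz2 called higher, Cd74 called lower, and Cd163 and Itgam at background. In the inner medulla list 2 of 5 genes were called higher in obese rats, Aqp4 by 0.62 and Slc14a2 by 0.61 on the log2 scale, and the summed signals overlapped (13594 to 18485 in lean, 14006 to 24628 in obese rats). Beside these marker counts, 7.69% of all probe sets tested were called higher and 6.62% lower. The part of these cells in the Ptgs2 result was not tested.

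Ptgs1 encodes the constitutive cyclooxygenase, which is abundant in collecting duct and vessels. Its brighter probe set (1368259_at) had signals of 627, 721 and 601 in lean control, 530, 690 and 576 in lean rosiglitazone, 864, 615 and 924 in obese control, and 1290, 730 and 806 in obese rosiglitazone rats. The obese rats on the drug all lay above the lean rats on the drug, and on control diet the obese replicate 2 lay within the lean range. The log2 change over both diets was 0.44 (SE 0.14, limma adjusted p = 0.0516), which missed the threshold. Leaving out lean rosiglitazone replicate 2, obese control replicate 2 or obese rosiglitazone replicate 2 brought the adjusted p to 0.0486, 0.0278 and 0.0318. The other arrays left out in turn and the other settings gave no call. With spike-in class as a covariate the change was 0.51 (limma adjusted p = 0.0674), and within the lower class it was 0.49.

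The second Ptgs1 probe set (1381806_at) was dimmer, with signals from 102 to 226 over the 12 arrays. Its log2 change over both diets was 0.05 (95% interval -0.32 to 0.43, limma adjusted p = 0.884). The 2 probe sets of this gene therefore gave different sizes, and the correlation of their log2 signals over the 12 arrays was 0.49.

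The synthases come next in the pathway. Ptges encodes microsomal prostaglandin E synthase, which often works together with Ptgs2. Its brighter probe set (1368014_at) had signals of 789, 463 and 993 in lean control, 867, 710 and 823 in lean rosiglitazone, 963, 925 and 957 in obese control, and 801, 848 and 830 in obese rosiglitazone rats. The lean control rats spread widely around their mean of 749 ± 267, and the 3 obese control rats were tightly grouped at 948 ± 20.4 (SD, n = 3 each), inside the lean range. The log2 change over both diets was 0.23 (95% interval -0.07 to 0.52, limma adjusted p = 0.32). For the dimmer probe set (1368015_at) it was 0.12 (95% interval -0.19 to 0.43, limma adjusted p = 0.652), and its signals ran from 285 to 469.

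Ptgds encodes lipocalin-type prostaglandin D synthase. Its signals were 294, 282 and 340 in lean control, 147, 277 and 294 in lean rosiglitazone, 504, 500 and 347 in obese control, and 232, 483 and 452 in obese rosiglitazone rats. The obese control rats all lay above the lean control rats, and on the drug obese replicate 1 fell inside the lean range. The log2 change over both diets was 0.59 (SE 0.2, 95% interval 0.16 to 1.02), 1.5-fold, with a limma adjusted p of 0.0646. Without obese rosiglitazone replicate 1 the change was 0.75 (limma adjusted p = 0.0131), and without lean rosiglitazone replicate 3 it was 0.67 (limma adjusted p = 0.0474). The other 10 arrays left out in turn gave no call, with a change as low as 0.44 without lean rosiglitazone replicate 1 (limma adjusted p = 0.13). With spike-in class as a covariate the change was 0.51 (limma adjusted p = 0.191), and within the lower class it was 0.3 (limma adjusted p = 0.581).

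The receptors for prostaglandin E2 differ in the signals they send: EP3, the product of Ptger3, couples mainly to inhibitory G proteins, EP4 (Ptger4) raises cyclic AMP, and EP1 (Ptger1) raises calcium. Ptger3 is abundant in the thick ascending limb and collecting duct, where prostaglandin E2 opposes vasopressin. Its promoter is shown beside that of Ptgs2 because these were the members called in the same direction. It lies at chr2:249264832-249265081 on the plus strand of GRCr8, from RefSeq, and holds no match to the motifs searched, so no letter is in capitals.
Ptger3 promoter: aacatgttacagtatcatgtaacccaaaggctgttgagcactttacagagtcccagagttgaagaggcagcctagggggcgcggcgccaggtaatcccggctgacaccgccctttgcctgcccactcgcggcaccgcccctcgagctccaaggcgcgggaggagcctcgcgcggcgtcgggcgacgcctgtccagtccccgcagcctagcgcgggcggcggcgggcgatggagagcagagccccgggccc

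The brighter Ptger3 probe set (1376977_at) had signals of 895, 1384 and 1507 in lean control and 1326, 1579 and 1437 in lean rosiglitazone rats. In obese rats they were 1768, 1694 and 1805 on control diet and 1728, 1756 and 1803 on rosiglitazone. All 6 obese rats lay above all 6 lean rats, with a mean of 1759 ± 43.4 against 1355 ± 242 in lean rats (SD, n = 6 each). Such a separation of all obese from all lean arrays was seen for 1 of 11 member probe sets and for 7.30% of all probe sets tested. Compared diet by diet, the groups did not overlap on either diet for 2 of 11 (this one and Ptgs2) and for 9.95% of all probe sets.

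The log2 change of this probe set over both diets was 0.39 (SE 0.11, 95% interval 0.17 to 0.62, limma adjusted p = 0.0228). The other Ptger3 probe set (1369187_a_at) had signals of 893 to 1466 in lean and 1187 to 1682 in obese rats, so its ranges overlapped. Its SD was 186 in lean and 191 in obese rats, so the smaller spread of obese rats in the first probe set was not seen in this one, and no test of spread was made. Its log2 change was 0.38 (SE 0.11, 95% interval 0.14 to 0.61, limma adjusted p = 0.0366). The 2 probe sets gave nearly the same size, although their deviations from the group means correlated at -0.26 over the 12 arrays.

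Both Ptger3 calls were near the threshold. With spike-in class added to the model the changes were 0.33 (limma adjusted p = 0.107) for 1376977_at and 0.36 (limma adjusted p = 0.11) for 1369187_a_at, and within the lower class they were 0.25 (limma adjusted p = 0.133) and 0.42 (limma adjusted p = 0.134). Leaving out lean rosiglitazone replicate 1, obese control replicate 3 or obese rosiglitazone replicate 3 gave an adjusted p of 0.054, 0.0532 and 0.0502 for 1376977_at. The call of 1369187_a_at was lost without lean control replicate 2, lean rosiglitazone replicates 2 or 3, obese control replicates 2 or 3, or obese rosiglitazone replicates 2 or 3, with an adjusted p of up to 0.0894. The distal tubule and collecting duct markers, whose summed signals are given above, moved in the same direction as Ptger3: 3 of 6 were called higher (Aqp3 by 0.71, Slc12a3 by 0.62 and Avpr2 by 0.39 on the log2 scale) and 0 lower. In the thick ascending limb list 2 of 5 were higher (Kcnj1 by 0.52 and Slc12a1 by 0.23) and 1 was lower, and its summed signals overlapped between body types. Beside these counts, 7.69% of all probe sets tested were called higher and 6.62% lower. The part of these markers in the Ptger3 result was not tested.

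Ptger1 and Ptger4 were too dim for the test. Ptger4 signals were 123, 46.2 and 129 in lean control, 187, 79.2 and 167 in lean rosiglitazone, 184, 212 and 155 in obese control, and 62.9, 208 and 181 in obese rosiglitazone rats. Only the obese control group had all 3 arrays above background. With every probe set kept in the fit, its log2 change over both diets was 0.43 (95% interval -0.22 to 1.08, limma adjusted p = 0.442). It was 0.88 on control diet (95% interval -0.04 to 1.8, limma adjusted p = 0.367) and -0.01 on rosiglitazone (limma adjusted p = 0.985 before and 0.996 after adjustment).

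The brighter Ptger1 probe set (1369254_a_at) had signals between 52.1 and 136 in lean rats and between 100 and 182 in obese ones, with 4 of 6 lean and 2 of 6 obese arrays under background. The other (1375803_at) was under background on all 12 arrays, at 17.4 to 101. The 2 unfiltered log2 changes of Ptger1 over both diets were 0.42 (limma adjusted p = 0.304) and 0.63 (limma adjusted p = 0.258). No difference in Ptger1 or Ptger4 was called at these low signals, which does not show that there is none.

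The last members are the enzymes of breakdown. Hpgd encodes the dehydrogenase that inactivates prostaglandin E2. Its brighter probe set (1376191_at) had signals of 825, 968 and 690 in lean control, 1116, 847 and 701 in lean rosiglitazone, 1327, 867 and 679 in obese control, and 1076, 1062 and 1223 in obese rosiglitazone rats. The obese rats on the drug all lay above the lean control rats, and every other pair of groups overlapped. The log2 change over both diets was 0.26 (95% interval -0.07 to 0.59, limma adjusted p = 0.3), and for the second probe set (1387631_at), whose signals ran from 364 to 890, it was 0.27 (95% interval -0.15 to 0.68, limma adjusted p = 0.405).

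The 2 Hpgd probe sets followed each other over the 12 arrays with a correlation of 0.83, the highest between any 2 member probe sets. The Hpgd values shifted when spike-in class entered the model: with the class as a covariate both probe sets were called higher in obese rats, by 0.53 (limma adjusted p = 0.0117) and 0.6 (limma adjusted p = 0.0218) on the log2 scale. Within the lower class the changes were 0.41 (limma adjusted p = 0.108) and 0.44 (limma adjusted p = 0.161), which again missed the threshold.

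Ephx2 encodes soluble epoxide hydrolase, which turns the vasodilating epoxides of arachidonate into diols. Its signals were 2641, 2707 and 2654 in lean control, 2600, 2796 and 2302 in lean rosiglitazone, 2963, 2655 and 2563 in obese control, and 2476, 2852 and 2404 in obese rosiglitazone rats. The 4 groups lay on top of each other. The log2 change over both diets was 0.02 with a 95% interval from -0.13 to 0.16 (limma adjusted p = 0.9), the narrowest interval of the member probe sets, so a change beyond 1.12-fold in either direction lies outside it.

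**Figure D2:**
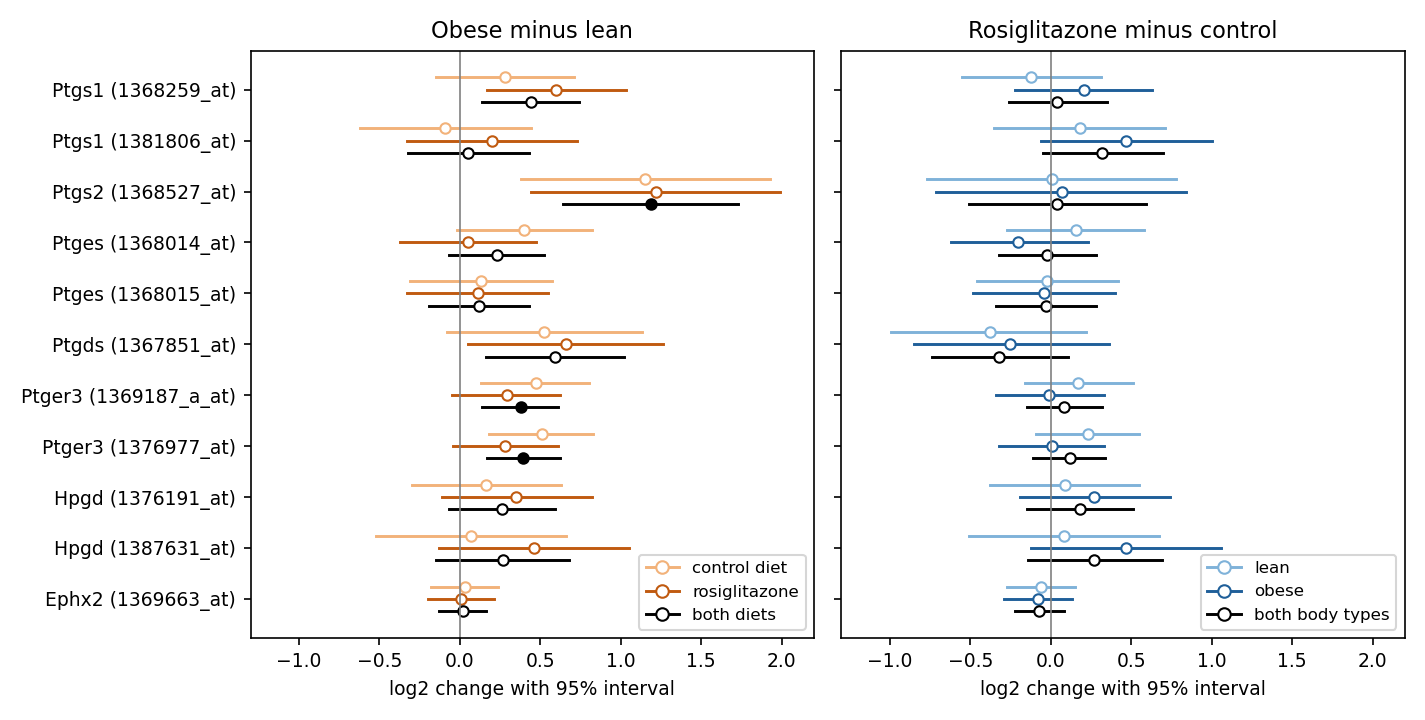
Log2 change (horizontal axis) of each member probe set tested (vertical axis), with its 95% interval from the limma fit, for obese minus lean rats on the left and rosiglitazone minus control on the right. Filled points are called at an adjusted p under 0.05: Ptgs2 at 1.19 and the Ptger3 probe sets at 0.39 and 0.38 over both diets are filled on the left, and no point is filled on the right.

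On each diet alone, the obese and lean groups of 3 gave wider intervals. On control diet 0 of 11 member probe sets were called, beside 4.74% of all probe sets, and 3 had an unadjusted p under 0.05, beside 18.9% of all probe sets: Ptgs2 and both Ptger3 probe sets, at 0.51 (limma adjusted p = 0.0718) and 0.47 (limma adjusted p = 0.115) for Ptger3. On rosiglitazone 0 of 11 were called, beside 2.41% of all probe sets called higher and 2.60% called lower, and 3 had an unadjusted p under 0.05, beside 19.7% of all probe sets: Ptgs2, Ptgs1 at 0.6 (limma adjusted p = 0.103) and Ptgds at 0.66 (limma adjusted p = 0.211). Groups without overlap were seen for 4 of 11 on control diet (Ptgs2, Ptgds and both Ptger3 probe sets; beside 25.5% of all probe sets) and for 3 of 11 on rosiglitazone (Ptgs2, Ptger3 1376977_at and Ptgs1 1368259_at; beside 23.3%), in each case with the obese rats above.

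For each drug comparison the 95% interval of all 11 member probe sets tested included 0. In limma's test 0 of 11 member probe sets were called in either body type or over both together, and 0 had an unadjusted p under 0.05 in any of these comparisons. Few probe sets on the whole array passed the same test: of all tested probe sets, 0.00537% were called in lean animals, 0.0698% in obese ones and 0.0591% over both. For Ptgs2 the log2 change with the drug over both body types was 0.04 (95% interval -0.51 to 0.59), for Ptger3 (1376977_at) 0.12 (95% interval -0.11 to 0.34), and for Ephx2 -0.07 (95% interval -0.22 to 0.08). The interval of Ptgs2 allows a fall as well as a rise. As a fold it runs from 0.7 to 1.5 over both body types, 0.59 to 1.72 in lean rats and 0.61 to 1.8 in obese rats.

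The larger drug differences among the members did not pass the test. With every probe set kept in the fit, the dim Ptger4 was at 0.5 and Ptger1 1375803_at at -0.49 in lean rats (limma adjusted p = 0.953 for each). Ptgds was at -0.38 on the log2 scale in lean rats (95% interval -0.99 to 0.22, limma adjusted p = 0.981). Over both body types it was at -0.32 (95% interval -0.74 to 0.11, limma adjusted p = 0.999). The dimmer Ptgs1 probe set was at 0.47 in obese rats (95% interval -0.06 to 1, limma adjusted p = 0.999), as was Hpgd 1387631_at (95% interval -0.12 to 1.06). Ptges 1368014_at was the 1 probe set of 11 whose drug and control rats did not overlap in obese animals, with all 3 treated rats (801, 848 and 830) under the controls (963, 925 and 957), beside 11.9% of all probe sets. Its log2 change was -0.2 (95% interval -0.62 to 0.23, limma adjusted p = 0.999).

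The drug effect did not differ detectably between obese and lean rats. In the interaction 0 of 11 member probe sets were called by limma, 0 had an unadjusted p under 0.05, and over all probe sets 0 were called, a share of 0%, with 802 at an unadjusted p under 0.05. The difference was 0.06 for Ptgs2 (95% interval -1.03 to 1.16) and -0.22 for Ptger3 1376977_at (95% interval -0.67 to 0.23). As a fold, the interval of Ptgs2 for the drug effect in obese against lean rats runs from 0.49 to 2.24.

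Other genes of arachidonate metabolism were counted in 7 lists, with the brightest probe set of each gene. Across the lists, the genes called between obese and lean rats over both diets went in both directions, and all 5 called in the list of P450 enzymes and epoxide hydrolases were lower. In that comparison 7.69% of all probe sets tested were called higher and 6.62% lower. The counts of each list below stand beside these shares, and as the lists are small they are a description and no test. Rosiglitazone gave 0 calls by limma in each list, within each body type and over both.

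Among genes of arachidonate release, 1 of 11 tested was higher and 1 lower in obese rats, with a median log2 change of 0.03. Acsl4, which couples arachidonate to coenzyme A, rose by 0.23 (limma adjusted p = 0.0245), and Mgll, which cleaves monoacylglycerols and so releases arachidonate in some tissues, fell by 0.43 (limma adjusted p = 0.016). The other Mgll probe sets were at -0.21, which was called, and 0.06, which was not. Cytosolic phospholipase A2, encoded by Pla2g4a, was at 0.22 and did not pass (limma adjusted p = 0.142). The Acsl4 call was lost without lean control replicate 1, obese control replicate 2 or obese rosiglitazone replicate 3, with an adjusted p of up to 0.064, and within the lower spike-in class (0.27, limma adjusted p = 0.107). With each array centred on its median it was 0.2 (limma adjusted p = 0.138). The Mgll call held for all 12 arrays left out in turn but was lost with quantile normalization (-0.29, limma adjusted p = 0.0967), with spike-in class as a covariate (-0.37, limma adjusted p = 0.0647) and within the lower class (-0.34, limma adjusted p = 0.294).

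Among other prostanoid synthesis genes, 2 of 8 were higher and 0 lower, with a median of 0.1. Cbr1, a carbonyl reductase that can turn prostaglandin E2 into prostaglandin F2alpha, rose by 0.31 (limma adjusted p = 0.0184), and Gpx1, a glutathione peroxidase, rose by 0.21 (limma adjusted p = 0.0266). The other prostaglandin E synthases, Ptges2 and Ptges3, were at 0.09 and 0.01 and did not pass. Without obese control replicate 2 the adjusted p of Cbr1 was 0.0556, and the Gpx1 call was kept for 5 of the 12 arrays left out in turn. Both calls were also lost with each array centred on its median (limma adjusted p = 0.0547 for Cbr1 and 0.215 for Gpx1) and within the lower spike-in class (0.117 and 0.0771), and that of Cbr1 with the class as a covariate (0.07). Of the other prostanoid receptors, Ptgfr, Tbxa2r, Ptger2 and Ptgdr2 were too dim to test. Ptgfrn, a regulator of the prostaglandin F receptor that stood in the same list and is no receptor for prostanoids, was at -0.01.

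In transport and breakdown, 1 of 7 genes was higher and 1 lower. Abcc4, which exports prostaglandins from cells, rose from 365 ± 42.5 to 486 ± 24.8 on control diet and from 384 ± 51.6 to 552 ± 58.7 on rosiglitazone (mean signal ± SD, lean to obese, n = 3 each), a log2 change of 0.46 (limma adjusted p = 0.00822). Within the lower spike-in class it was 0.38 and did not pass (limma adjusted p = 0.148). Hsd17b10, a mitochondrial dehydrogenase, fell by 0.42 (limma adjusted p = 0.000616). The prostaglandin uptake carrier Slco2a1 was at -0.04 and did not pass. In the lipoxygenase list 0 of 6 were higher and 2 lower: Ggt1 fell by 0.36 (limma adjusted p = 0.0191) and Mgst3 by 0.24 (limma adjusted p = 0.0389), both of which also act in glutathione metabolism. The Ggt1 call was lost without lean control replicate 1 (limma adjusted p = 0.0504), and that of Mgst3 was kept for 3 of the 12 arrays left out in turn. Under the 9 other settings Ggt1 was called in 4 and Mgst3 in 3. With quantile normalization both were at -0.08 (limma adjusted p = 0.392 for Ggt1 and 0.423 for Mgst3), and with spike-in class as a covariate Ggt1 was at -0.2 (limma adjusted p = 0.051) and Mgst3 at -0.18 (limma adjusted p = 0.139).

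P450 enzymes turn arachidonate into epoxides or 20-HETE. Of 12 genes tested in their list, which also holds epoxide hydrolases, 5 were lower in obese rats, 0 higher and 7 did not pass, where 6.62% of all probe sets tested were called lower. The list was chosen with earlier results of these data known and counts the brightest probe set of each gene. Setting it beside that share is therefore a description and no test. The median log2 change of the list was -0.22, beside 0.03 over all probe sets. Cyp2c23, the main epoxygenase of the rat kidney, fell by 0.41 (limma adjusted p = 0.0176) and Cyp2c11 by 0.77 (limma adjusted p = 0.0221). Of the hydroxylases, Cyp4a3 fell by 0.37 (limma adjusted p = 0.00227), Cyp4f1 by 0.44 (limma adjusted p = 0.00672) and Cyp4f6 by 0.49 (limma adjusted p = 0.000992). The microsomal epoxide hydrolase Ephx1 was at -0.23 and did not pass (limma adjusted p = 0.135), and Ephx2, as given above, was at 0.02.

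These enzymes are made largely by the proximal tubule, and 5 of 6 proximal tubule markers also fell in obese rats: on the log2 scale Cubn fell by 0.49, Slc22a6 by 0.46, Aqp1 by 0.45, Slc34a1 by 0.38 and Lrp2 by 0.37. The remaining one, Slc5a2, rose by 2.56 (limma adjusted p = 0.0414). Beside these counts, 6.62% of all probe sets tested were called lower and 7.69% higher. The part of these markers in the P450 result was not tested. The Cyp2c11 call was lost without lean control replicate 1, lean control replicate 2, lean rosiglitazone replicate 2 or obese control replicate 2, with an adjusted p of up to 0.057. Within the lower spike-in class Cyp4f1 and Cyp4f6 were still called. There Cyp4a3 was at -0.35 (limma adjusted p = 0.0509), Cyp2c11 at -0.64 (limma adjusted p = 0.23) and Cyp2c23 at -0.1 (limma adjusted p = 0.402). The Cyp2c23 call was also lost with quantile normalization (-0.2, limma adjusted p = 0.0589) and with spike-in class as a covariate (-0.25, limma adjusted p = 0.0752), and that of Cyp2c11 with the covariate (-0.69, limma adjusted p = 0.0679).

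**Figure D3:**
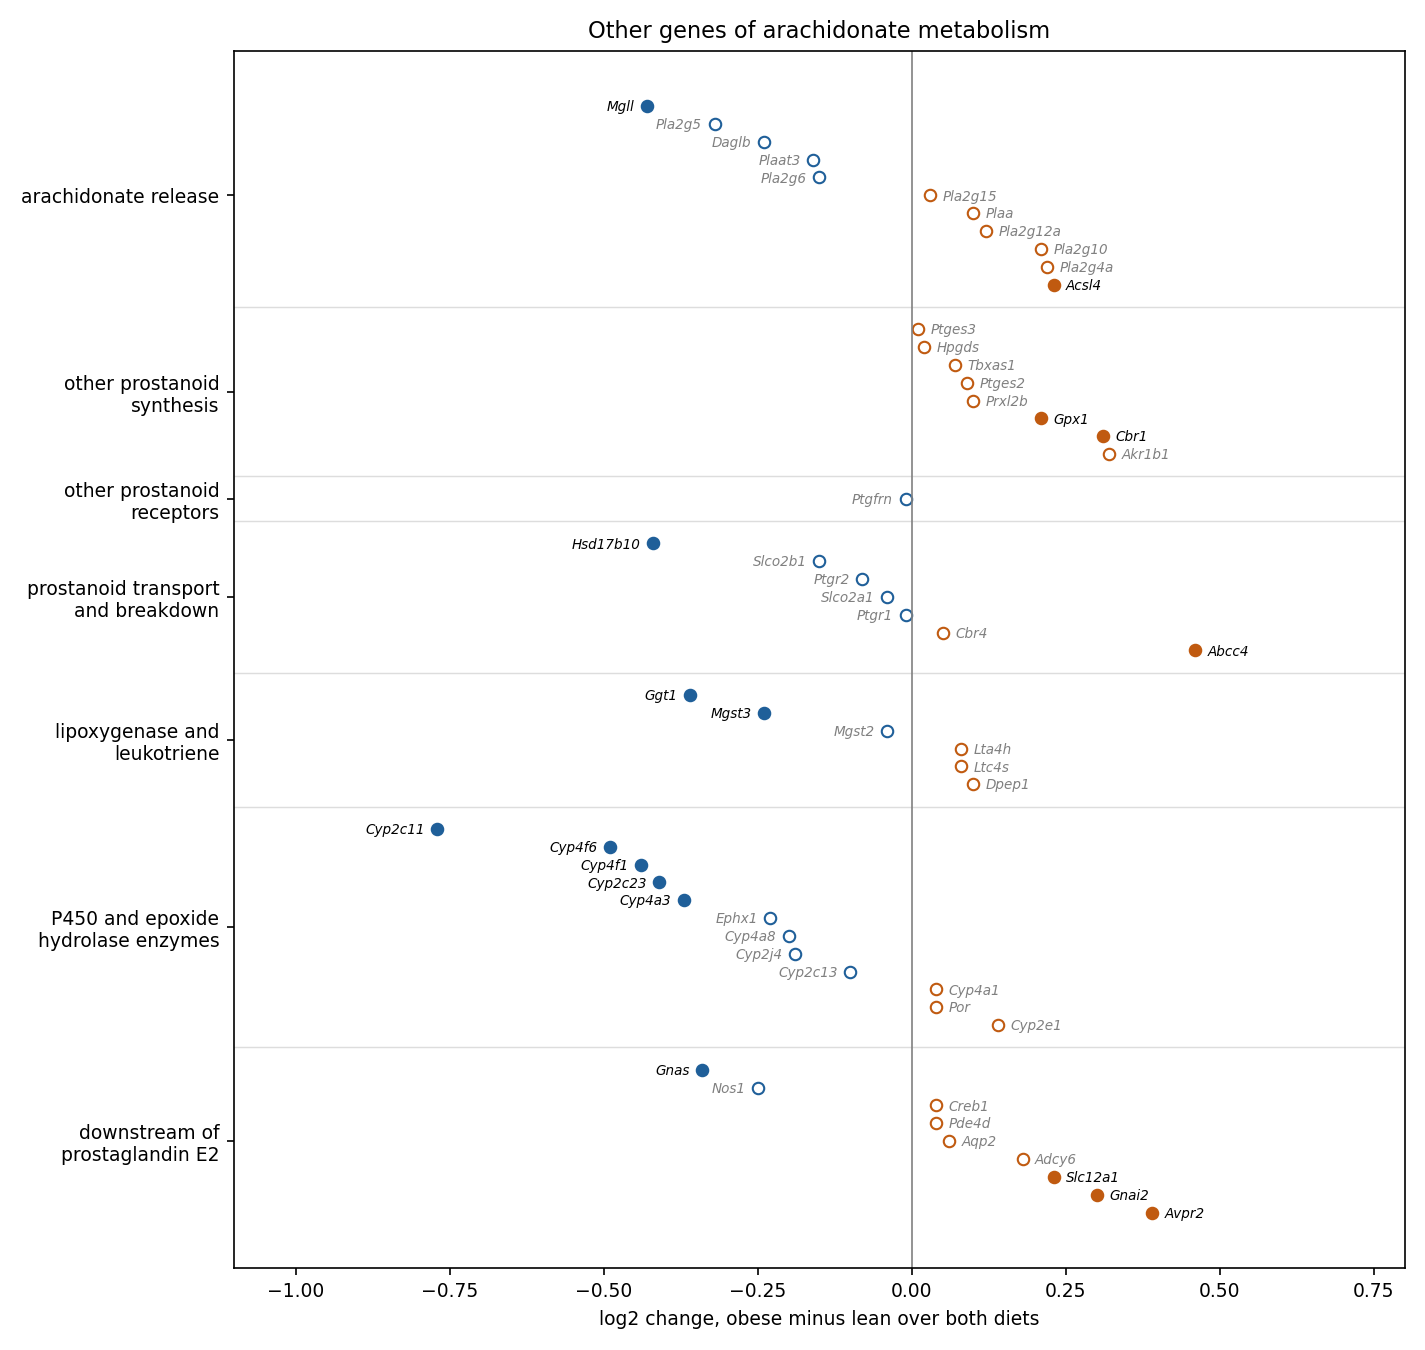
Log2 change in obese minus lean rats over both diets (horizontal axis) for each gene tested in the 7 lists (vertical axis). Filled points are called by limma at an adjusted p under 0.05, orange for higher and blue for lower in obese rats: 5 of 12 P450 and epoxide hydrolase genes are filled, all of them lower, from Cyp2c11 at -0.77 to Cyp4a3 at -0.37.

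Of genes that act downstream of prostaglandin E2 in salt and water transport, 3 of 9 were higher and 1 lower. Among all probe sets tested, 7.69% were called higher and 6.62% lower. Avpr2, the vasopressin receptor of the collecting duct, rose by 0.39 (limma adjusted p = 0.00376), Gnai2, an inhibitory G protein subunit of the kind EP3 uses, by 0.3 (limma adjusted p = 0.0382), and Slc12a1, the sodium transporter of the thick ascending limb, by 0.23 (limma adjusted p = 0.0496). Gnas, the stimulatory G protein subunit, fell by 0.34 (limma adjusted p = 0.00446). The calls of Avpr2 and Gnas held for all 12 arrays left out in turn, those of Gnai2 for 3 and of Slc12a1 for 2. Under the 9 other settings Gnas was called in 9, Avpr2 in 8, and Gnai2 and Slc12a1 in 4 each. Within the lower spike-in class Avpr2 was at 0.36 (limma adjusted p = 0.0933) and Gnai2 at 0.11 (limma adjusted p = 0.602), and with the class as a covariate Gnai2 was at 0.19 (limma adjusted p = 0.205).

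By likeness of log2 signal over the 12 arrays, Ptgs2 was closest to Zfp592 (Pearson r = 0.96) and Elk3 (0.959), Ptger3 to Rpp38 (0.948) and Plekhd1 (0.929), and Ptgs1 to Cttn (0.955) and Qsox1 (0.949). These pairs were picked as the highest among correlations with all other probe sets tested, over arrays that share the body type difference, and they are a description.

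**Figure D4:**
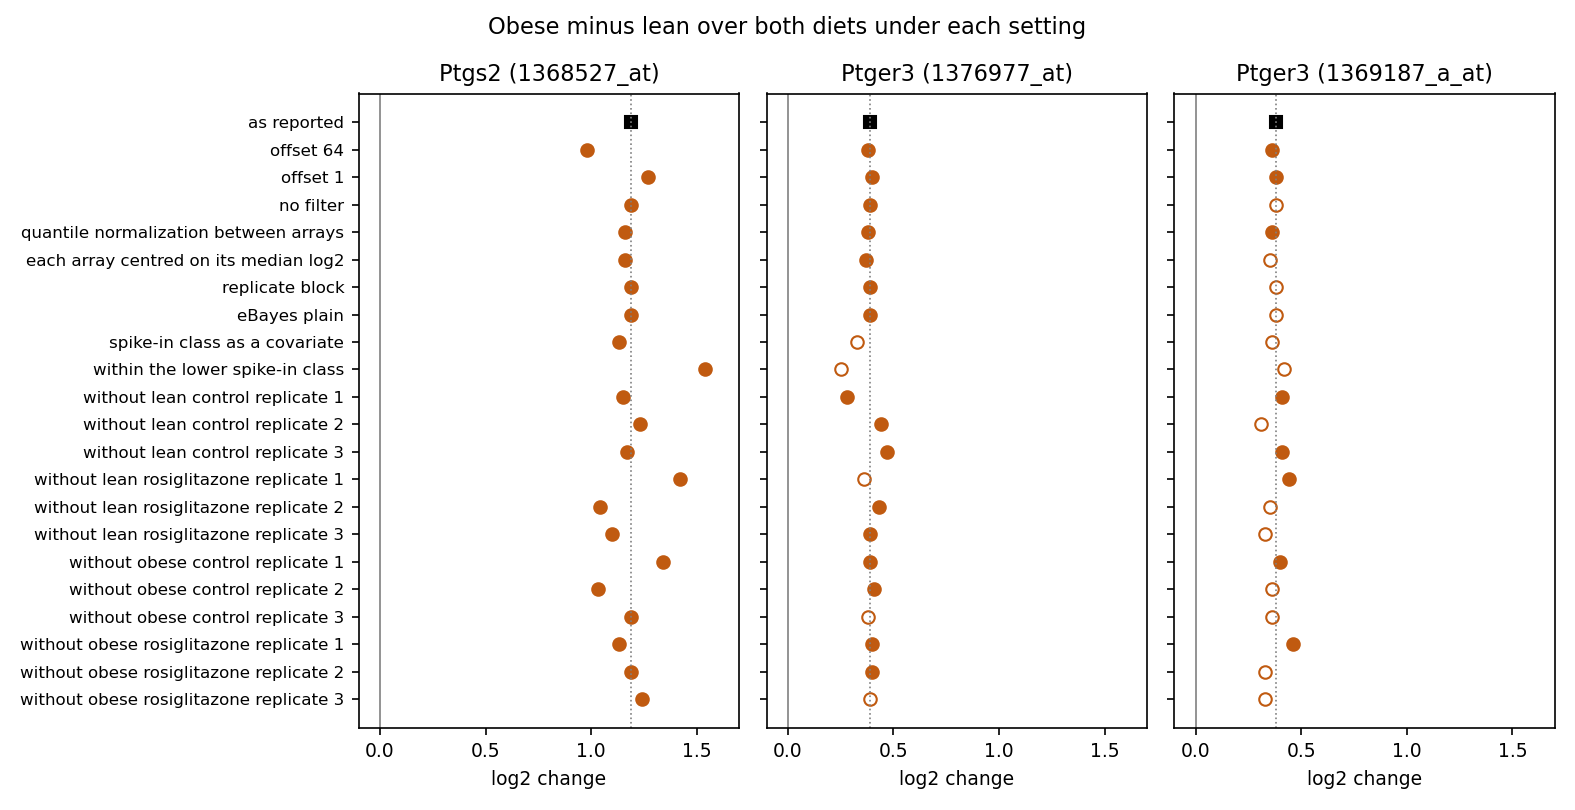
Log2 change in obese minus lean rats over both diets (horizontal axis) for the 3 member probe sets called, as reported (square) and under each of 21 other settings or arrays left out (circles, filled where called by limma). Ptgs2 stays called in all 21, between 0.98 and 1.54, while Ptger3 1376977_at is called in 16 of 21 and Ptger3 1369187_a_at in 8 of 21.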

How the data were processed

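Kidney RNA of 12 rats, extracted with Trizol and labelled with biotin per the labels, was hybridised to Affymetrix rat arrays. The deposited values are linear signal intensity values made by the authors with MAS5, per the submitters' processing notes; the scaling target and image settings are not stated there, and the array number limits the precision. Of 31099 probe sets, 57 controls were left out. The intensity was turned to log2 after adding 16, with no further normalization, and probe sets below the 40th percentile of mean log2 (7.32) were not tested. One linear model with 4 group means (limma 3.58.1, statmod 1.5.0, R 4.3.3; trend and robust eBayes; 8 residual degrees of freedom) covered 7 comparisons, with Benjamini-Hochberg adjustment within each. The script was tested on simulated data. Members and gene lists, and the motifs, were chosen with earlier results of these data known. All member probe sets were named, with called genes of each list. Alternatives varied the offset, filter, normalization, variance model, replicate block, spike-in class and each array.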

Additional observations from a re-analysis of the deposited data

How the results depend on the processing

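Of 22 alternatives, 12 left out 1 array and 10 changed a setting, and 21 of them allow the comparison over both diets. None reversed a called value, and 114 of 1639 member values changed sign, none of them called in either setting. Over both diets 3 member probe sets were called. Leaving out each array gave 1 to 4, and within the lower spike-in class 1 remained, Ptgs2. On rosiglitazone, where 0 were called, the spike-in class as a covariate gave 2 (both Hpgd), the lower class gave 1 (Ptgs2) and leaving out each array 0 to 1. On control diet it was 0 to 1, and for the drug comparisons and the interaction 0 to 0. In the lower class the median of the arachidonate release list was -0.12, and with quantile normalization that of the downstream list was 0.18. The cause was not tested.

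The labels do not state whether same-numbered rats were paired, and the main model did not pair them. Of 18 same-numbered pairs of arrays, 4 had a correlation of deviations over 0.1. The median was 0.0697, beside -0.0234 for other pairs, and these values do not settle whether the rats were paired. With the replicate block 3 probe sets were called over both diets: Ptgs2, Ptger3 1376977_at and Ptgds (limma adjusted p = 0.0487), while Ptger3 1369187_a_at had an adjusted p of 0.0536.

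Counts over all probe sets moved more. On control diet 882 were called, with 325 to 1003 when arrays were left out and 52 to 995 under other settings. On rosiglitazone it was 932, with 474 to 1033 and 493 to 1002. Over both diets it was 2665, with 1919 to 2705 and 1147 to 2696. For the drug, 1 in lean rats became 0 to 23, 13 in obese rats 0 to 34 and 11 over both body types 3 to 20. In the interaction the count ran from 0 to 6. Quantile normalization and median centring moved the median change of all probe sets by under 0.1. Low signals limit Ptger1, Ptger4 and, in lean rats, Ptgs2.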

Other observations

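Within groups, correlations between member probe sets went in both directions. Over the 12 arrays, deviations of log2 signal from the group means correlated at 0.77 between the 2 Hpgd probe sets. They correlated at 0.59 between the 2 Ptgs1 probe sets and at 0.6 between Ptger3 1369187_a_at and Ptges 1368014_at. Between Ephx2 and each Hpgd probe set the value was 0.49. Ptger3 1369187_a_at was at -0.73 with Ptgs1 1368259_at and at -0.61 with Ptgs1 1381806_at. For Ptgds and Ptgs2 it was -0.61. All these values were picked by size, share the arrays and their scaling, and are descriptions.

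Markers of fat cells stood apart in the same kidneys: 6 of 7 tested were lower in obese rats and 2, Fabp4 and Ucp1, were higher with rosiglitazone over both body types, at log2 changes of 2.42 (limma adjusted p = 0.00324) and 2.1 (limma adjusted p = 0.0456). Among all probe sets tested, 6.62% were called lower in obese rats and 0.0591% were called with the drug over both body types. The summed signal of the fat cell markers was 4643 to 7768 in lean control, 11183 to 20543 in lean rosiglitazone, 2762 to 3216 in obese control and 5776 to 7171 in obese rosiglitazone rats. In this summed signal the drug groups did not overlap with their controls in either body type. By limma calls, 0 of 7 genes of the list were higher with the drug in lean rats and 1 of 7 in obese rats. Of the member probe sets 0 of 11 were called in each, beside 0.00537% and 0.0698% of all probe sets.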
